A study of Mus musculus with 16 samples.

Results

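The regions described here are the 4059 open chromatin regions of mouse chromosome 8, out of 80352 regions found in at least 2 of 16 ATAC-seq libraries on all chromosomes. They were obtained by merging the peaks of all 16 libraries wherever they overlapped by at least 1 bp, and then keeping those on chromosome 8. ATAC-seq reads open chromatin from where a transposase can insert sequencing adapters into DNA. The libraries came from mouse prostate organoids, which are cultures of prostate epithelial cells. The 4 groups of 4 libraries were SPOPmut with DHT, SPOPmut with EtOH, Control with DHT and Control with EtOH. DHT (dihydrotestosterone, an androgen) was given at 10 nM for 24 h, EtOH is its solvent, and the organoid medium lacked mEGF in every group. All 16 libraries also carry the label sgNT, so both genotypes share it. The labels do not name the SPOP allele, the animals or whether replicate libraries were grown as separate cultures, so the spread between libraries may be technical.

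Chromosome 8 was chosen by its share of called regions, which was smaller in SPOPmut than in Control. Every comparison of the genotypes below is therefore a description, without a test. The comparison of DHT with EtOH did not enter the choice and was tested. A call in a library means that one of its deposited peaks overlapped the region, and a region without a call may still hold signal under the peak caller's threshold. The lists held 57245 to 69644 peaks, and replicate 2 had the shortest list in each group. None of the 16 lists were identical, and chromosome 8 calls of libraries of the same group overlapped with a Jaccard index (shared over all called regions) of 0.845 to 0.927. Read depth is unknown, so no counting interval can be given. The libraries are bulk samples, in which fewer cells with an open region and less opening per cell cannot be told apart.

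SPOP is the part of a cullin-based ubiquitin ligase that recognises its substrates, and it is recurrently mutated in prostate cancer. Androgens such as DHT drive much of the gene activity of prostate luminal cells, and open chromatin marks the promoters and enhancers where transcription factors act. Mouse chromosome 8 carries the classical cadherin genes Cdh1 (E-cadherin) and Cdh3 (P-cadherin), the metallothioneins, a cluster of carboxylesterases, and genes of growth factor and steroid pathways such as Irs2, Nrg1, Inpp4b, Hsd17b2 and Zfhx3.

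At the prostate epithelium marker genes Krt5, Krt8, Trp63 and Foxa1 a region was called in all 16 libraries. Epithelial marker genes did not carry equal numbers of regions in the genotypes. Krt18 had 2 to 4 (DHT) and 5 to 6 (EtOH) called regions in SPOPmut libraries, against 1 to 2 (DHT) and 1 (EtOH) in Control libraries. Trp63, which marks basal cells, had 21 to 23 (DHT) and 19 to 21 (EtOH) in SPOPmut libraries, against 26 to 30 (DHT) and 20 to 23 (EtOH) in Control libraries. The other basal keratin genes were not lower, with 3 called regions at Krt5 in every library, and at Krt14 6 (DHT) and 5 to 6 (EtOH) in SPOPmut libraries, against 5 in every Control library. Among luminal genes, Krt8 had 2 to 3 in SPOPmut libraries and 1 in every Control library, and Krt19 had 9 in every SPOPmut library, against 7 (DHT) and 5 to 7 (EtOH) in Control libraries. Foxa1 had 12 to 13 (DHT) and 12 (EtOH) in SPOPmut libraries, against 9 to 10 (DHT) and 10 to 11 (EtOH) in Control libraries.

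The sequences shown are promoters in regions that were called in all 8 Control libraries and in no SPOPmut library, a pattern called lost here. Of 1442 promoter windows on chromosome 8 (250 bases before to 50 after a gene's start, RefSeq, GRCm38, the mm10 assembly), 632 overlapped a region. The windows do not cover every gene. Il15, Cdh1, Cdh5 and Psd3 have none, so counts of promoters are minimum counts. In all, 566 windows lay at a region called in every library, and 11 windows of 8 genes lay at one of 7 lost regions. The windows of Vegfc, a growth factor of lymphatic vessels, Inpp4b, a lipid phosphatase that opposes PI3-kinase signalling, and Ces1b, a carboxylesterase, lay wholly inside a lost region. That of Neil3, a DNA repair glycosylase, lay mostly inside one. Each line reads 5′ to 3′ on the gene's own strand, and capitals mark matches, on either strand, to any of 5 short motifs. These were the TATA box TATAAA, the GC box GGGCGG, the CCAAT box CCAAT, the AP-1 site TGANTCA and the forkhead site TGTTTAC.
Vegfc, chr8:54077282-54077581, plus strand: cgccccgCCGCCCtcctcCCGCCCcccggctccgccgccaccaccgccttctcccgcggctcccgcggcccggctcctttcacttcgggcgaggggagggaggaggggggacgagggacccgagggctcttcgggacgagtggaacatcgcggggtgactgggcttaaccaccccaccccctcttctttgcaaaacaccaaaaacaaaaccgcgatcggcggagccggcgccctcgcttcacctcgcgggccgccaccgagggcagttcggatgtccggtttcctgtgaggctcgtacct
Inpp4b, chr8:81342312-81342611, plus strand: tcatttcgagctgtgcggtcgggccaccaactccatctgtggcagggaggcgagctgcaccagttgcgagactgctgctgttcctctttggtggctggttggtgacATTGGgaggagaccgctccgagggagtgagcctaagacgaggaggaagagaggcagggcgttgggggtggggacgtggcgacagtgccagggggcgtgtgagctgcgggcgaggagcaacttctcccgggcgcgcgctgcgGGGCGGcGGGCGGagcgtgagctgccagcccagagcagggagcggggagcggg
Ces1b, chr8:93079891-93080190, minus strand: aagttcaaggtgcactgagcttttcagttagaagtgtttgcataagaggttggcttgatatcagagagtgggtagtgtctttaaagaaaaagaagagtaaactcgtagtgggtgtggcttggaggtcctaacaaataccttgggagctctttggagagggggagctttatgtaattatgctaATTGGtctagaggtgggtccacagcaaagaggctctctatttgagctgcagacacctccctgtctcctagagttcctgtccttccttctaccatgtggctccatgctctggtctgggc
Neil3, chr8:53639016-53639315, minus strand: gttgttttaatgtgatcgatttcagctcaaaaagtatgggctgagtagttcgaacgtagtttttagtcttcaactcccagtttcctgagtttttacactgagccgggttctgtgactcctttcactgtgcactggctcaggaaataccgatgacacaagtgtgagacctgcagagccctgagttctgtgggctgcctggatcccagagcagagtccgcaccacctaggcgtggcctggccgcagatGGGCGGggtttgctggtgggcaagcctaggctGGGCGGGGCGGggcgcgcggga

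Vegfc (70.3% G and C) and Inpp4b (68.3%) have promoters rich in G and C, and that of Ces1b (47%) is not. The median over all 32851 windows was 52.7%. The Vegfc window holds 2 GC boxes, that of Inpp4b 2 GC boxes and a CCAAT box, that of Neil3 3 GC boxes, of which neighbouring ones share bases, and that of Ces1b a CCAAT box. A GC box occurs in 35.7% of all windows and a CCAAT box in 37.4%. A match is only a match of letters. The lost region around the Vegfc start (chr8:54076853-54078247) ranked at a median of 58 within the Control lists, where 100 is the strongest peak of a list by the authors' peak signal. The one at the Inpp4b start (chr8:81341586-81342701) ranked at 21.1, the one at the Ces1b start (chr8:93079871-93080529) at 40.7 and the one at the Neil3 start (chr8:53638527-53639265) at 30.3. The Inpp4b start region overlaps both Inpp4b and its neighbour Gm51582 and was counted with Gm51582 in the counts per gene.

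Across the whole chromosome, SPOPmut libraries devoted a smaller share of their called regions to chromosome 8. The share was 4.90%, 4.88%, 4.93% and 4.91% in the 4 SPOPmut libraries with DHT and 4.94%, 4.94%, 4.94% and 4.93% in the 4 with EtOH. It was 5.43%, 5.41%, 5.36% and 5.38% in the 4 Control libraries with DHT and 5.40%, 5.44%, 5.37% and 5.39% in the 4 with EtOH. No SPOPmut library reached the lowest Control library, and the relative difference of the mean shares (SPOPmut over Control) was -8.83%. A lower share was not particular to chromosome 8. Of 21 chromosomes 11 had a lower share in SPOPmut and 10 a higher one. Among the numbered chromosomes 14 (-15.5%) and 13 (-12.5%) fell further, and 6 (-8.49%), 10 (-8.45%) and 4 (-8.01%) almost as far. In numbers of chromosome 8 regions the genotypes overlapped, because lists differ in length. SPOPmut libraries called 2716 to 3185 (DHT) and 2821 to 3102 (EtOH) regions of chromosome 8, and Control libraries 2957 to 3213 (DHT) and 2903 to 3284 (EtOH).

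The regions that were called everywhere also ranked lower in SPOPmut. For the 2077 chromosome 8 regions called in all 16 libraries, the median within-list percentile of the peak signal was 63.9 in SPOPmut and 67.2 in Control. Over the 39300 such regions of all chromosomes it was 67 in SPOPmut and 66.2 in Control. Set against the median of all chromosomes in the same library, chromosome 8 stood at -4.06 to -2.80 points in SPOPmut with DHT and at -3.56 to -2.51 points in SPOPmut with EtOH. In Control it stood at 0.403 to 0.641 points with DHT and at 0.978 to 1.58 points with EtOH. The genotypes thus did not overlap in this measure either. The median percentile differed by -3.29 points on chromosome 8, SPOPmut minus Control. It fell further on chromosomes 14 (-6.85), 13 (-5.39), 4 (-4.60) and 10 (-4.18), and it rose on others, such as 15 (9.64) and 2 (9.46).

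**Figure D1:**
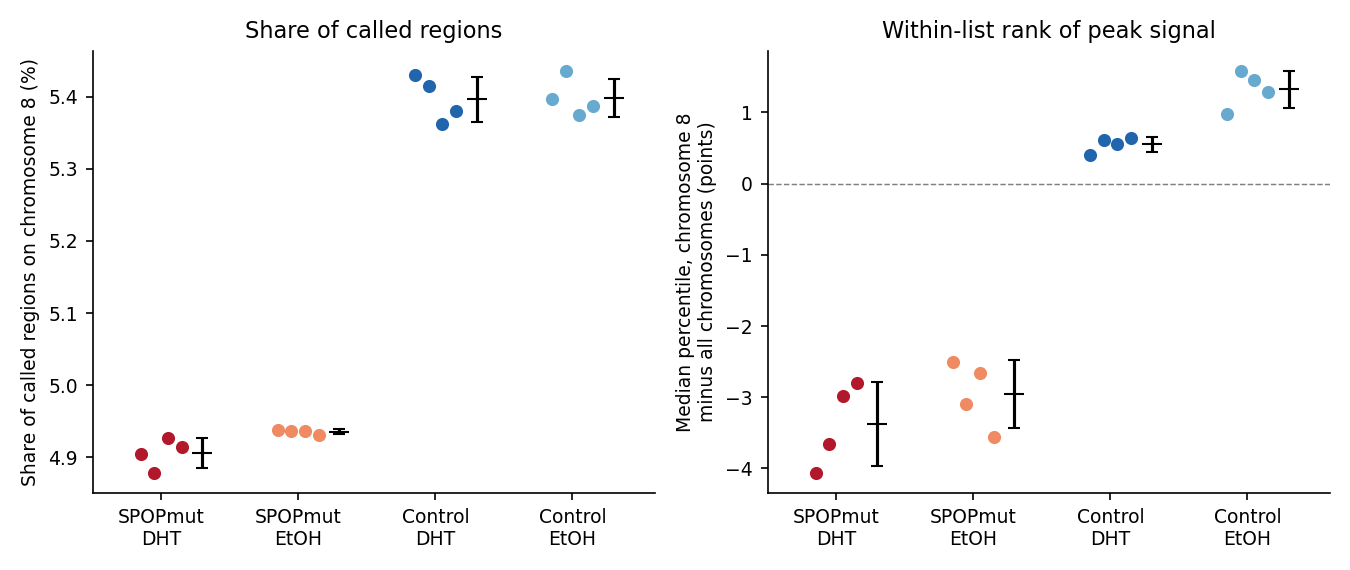
Left, share of each library's called regions that lie on chromosome 8 (%), and right, median within-list percentile of the chromosome 8 regions called in all 16 libraries minus that of all chromosomes (points), for the 4 libraries of each group with the mean and SD beside them. All SPOPmut libraries lie below all Control libraries in both measures, and shares average 4.91% and 4.94% in SPOPmut against 5.40% and 5.40% in Control.

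Most chromosome 8 regions did not differ in whether they were called. In all, 51.2% were called in every library. Those called in all 8 Control libraries and in 1 to 7 SPOPmut libraries made up 7.12% (5.70% on all chromosomes), and those called in all 8 SPOPmut and 1 to 7 Control libraries 4.98% (7.29% on all chromosomes). At the edge of the rule for members, 174 chromosome 8 regions were called in exactly 2 libraries, with a median percentile of 6.47 and a median width of 318.5 bp. The 286 regions called in 1 library, which were left out, had a median percentile of 4.38 and a median width of 281 bp.

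Lost regions numbered 113, or 2.78% of the members, where 2.02% of all regions were lost. Gained regions, found by all 8 SPOPmut libraries and by 0 Control libraries, numbered 49, or 1.21%, where 2.23% of all regions were gained. These shares use the contrast that chose the chromosome and are given as they stand. Promoter windows were rarer among both than among all members. In all, 6.19% of lost and 0% of gained regions overlapped one, against 11.8% of all members and 20.4% of those called in every library. Genes without a window, such as Il15, are missing from these shares. On all chromosomes 8.75% of lost and 3.18% of gained regions overlapped one, against 12.8% of all regions. Lost regions had a median width of 586 bp and a median percentile of 36.8 in the lists that called them. Gained regions had 657 bp and 35.04.

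The lost region with the highest rank (75.8) lay 57.4 kb from Dusp26, a dual-specificity phosphatase gene, at chr8:31031483-31032744. The next (73.9, chr8:103519958-103521048) had no gene within 100 kb, and the third (67.4, chr8:92896134-92896961) lay inside Lpcat2, which encodes an enzyme of phospholipid remodelling. The gained region with the highest rank (87.4, chr8:11235362-11237608) lay inside Col4a1, a collagen chain of basement membranes, and was 2247 bp wide. The others were inside Banp (70.2, chr8:121985457-121986200) and 59.6 kb from the transcription factor gene Hand2 (65.0, chr8:57383739-57384425). Each was called in 8 of 8 libraries of its genotype and in 0 of 8 of the other.

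The difference was uneven along the chromosome and largest in number from 80 to 100 Mb. In 10 of 13 bins of 10 Mb SPOPmut had fewer called regions under both treatments. In 3 bins every SPOPmut library lay below every Control library in both treatments, where 5.78% of the bins of all chromosomes did so. The reverse held in 0 of the 13 bins, where 17.7% of all bins did so. From 90 to 100 Mb libraries called 175 to 210 (SPOPmut with DHT) and 186 to 213 (SPOPmut with EtOH) regions, against 238 to 252 (Control with DHT) and 233 to 258 (Control with EtOH), a relative difference of -20.6%. From 80 to 90 Mb they called 206 to 242 and 211 to 241 in SPOPmut with DHT and with EtOH, against 245 to 266 and 247 to 279 in Control with DHT and with EtOH, a relative difference of -13.5%. From 50 to 60 Mb they called 65 to 75 and 66 to 72 in SPOPmut with DHT and with EtOH, against 80 to 89 and 73 to 85 in Control with DHT and with EtOH, a relative difference of -15.9%.

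The 20 Mb from 80 to 100 Mb accounted for 49% of the whole chromosome's difference in mean calls per library (2954 regions in SPOPmut and 3129 in Control). Without them the relative difference of the chromosome 8 share was -6.70%, and without the 113 lost regions it was -5.41%. Without both the lost and the gained regions it was -6.98%. From 30 to 40 Mb SPOPmut had 3.48% more called regions, and from 120 to 130 Mb the genotypes differed by 0.0483%.

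Bins of 5 Mb separated 4 places. From 90 to 95 Mb the mean was 148.4 called regions in SPOPmut and 197.1 in Control, from 80 to 85 Mb 130.5 in SPOPmut and 148.2 in Control, and from 100 to 105 Mb 47.2 in SPOPmut and 67.8 in Control. From 50 to 55 Mb, a gene-poor bin with 10 regions, SPOPmut libraries called 1 or 2 and Control libraries 7 to 10. The largest excess in number lay from 105 to 110 Mb, the bin that holds Cdh1, Cdh3 and Zfhx3. Its mean was 252.4 in SPOPmut and 241.1 in Control, and the libraries overlapped there. That is 4.67% more in number, but 1.06% more as a share of each library's called regions. The within-list percentile was lower in SPOPmut in all 13 bins of 10 Mb and in 23 of 26 bins of 5 Mb. From 20 to 30 Mb it was 66.6 in SPOPmut and 73.6 in Control, and there alone among the 10 Mb bins every SPOPmut library ranked below every Control library. Lower ranks thus occurred also in bins where the number of called regions overlapped.

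**Figure D2:**
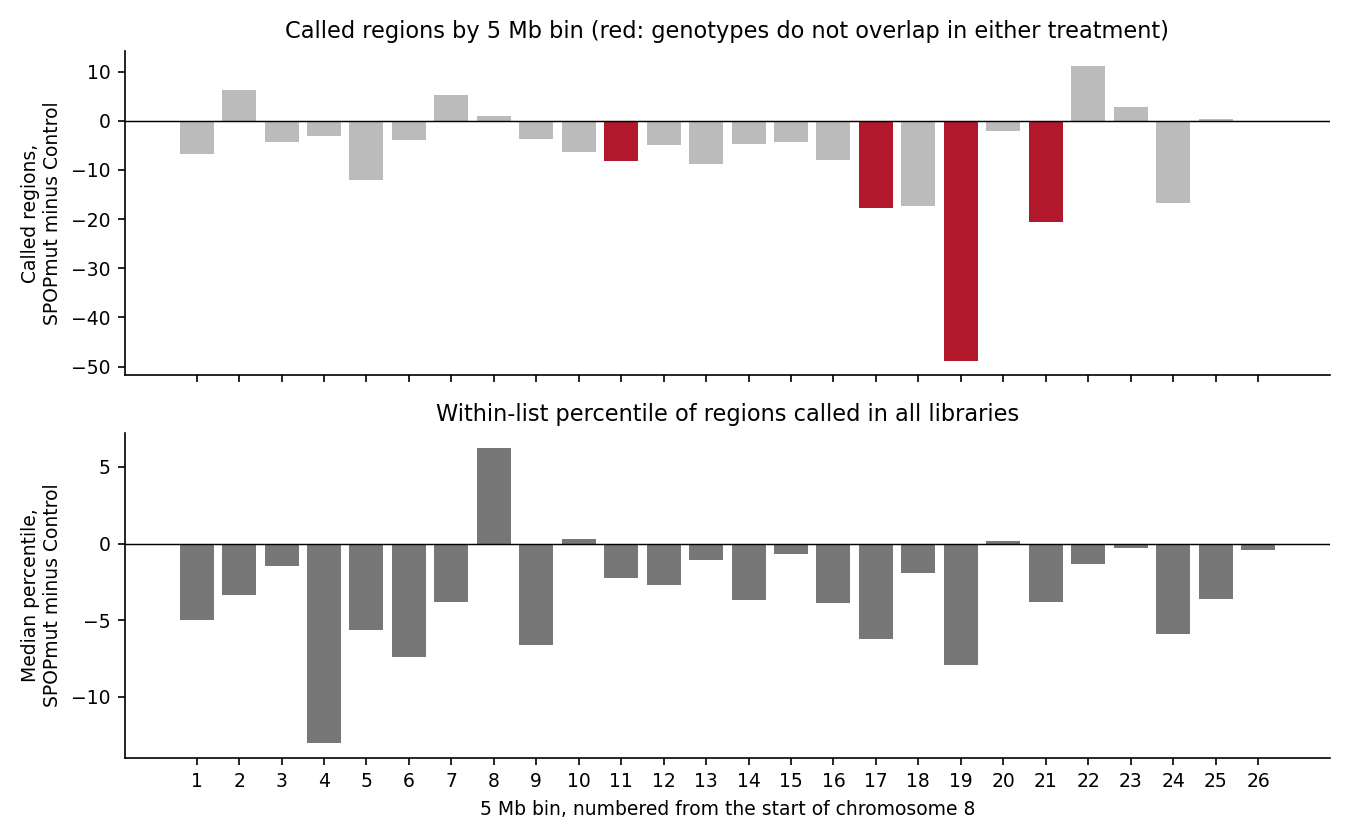
SPOPmut minus Control along chromosome 8 in 26 bins of 5 Mb, above for the mean number of called regions and below for the median within-list percentile of the regions called in all libraries. Red bars mark the 4 bins in which all SPOPmut libraries lie below all Control libraries in each treatment. The deepest bar, bin 19, stands at -48.8 regions, and percentiles are lower in 23 of the 26 bins. Bin 11 holds 1 region called in all libraries.

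Lost regions lay next to each other in 6 places. A block was taken as a run of 3 or more lost regions that are neighbours among the regions called in all 8 Control libraries. The 6 blocks held 33 of the 113 lost regions, and 58 such blocks occurred on all 21 chromosomes. The longest of the 58 was the block around Il15, a cytokine gene that sustains natural killer cells and memory T cells. It held 10 lost regions over 436 kb (chr8:82243456-82679478), and the next longest, on chromosome 10, held 9. The Il15 block has 1 further region, which no SPOPmut library called. The nearest regions called by any SPOPmut library lay 905.9 kb apart, on the sides of Inpp4b and Zfp330. Within the block 4 lost regions had their midpoint inside the Il15 body, 4 lay up to 87.7 kb to its left and 2 closer to Zfp330. One of the 4 at the body (chr8:82402220-82403258) runs past the right end of the gene. Il15 has no promoter window, so a loss at its promoter could not be counted above. Their percentiles in Control ran from 20.6 to 65.8, so the block held strong as well as weak peaks.

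**Figure D3:**
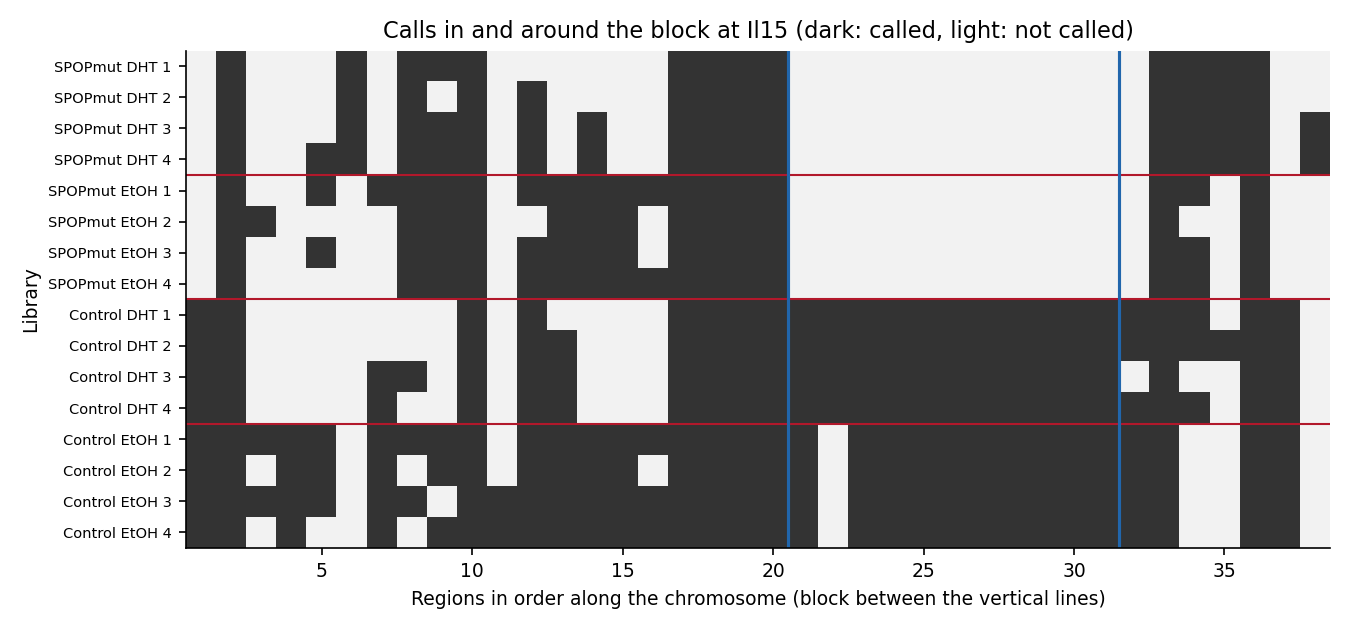
Calls in the 11 regions of the block around Il15 (between the vertical lines), in the 20 regions before and the 7 after it, in order along the chromosome and not to scale. Rows are the 16 libraries, SPOPmut above Control, and dark cells are calls. SPOPmut rows are empty across the block and filled in the 4 regions just before it.

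The other blocks lay at genes of different kinds. The block with the largest extent covered Neil3, Vegfc and Gm33153 (chr8:53607148-54425351), with 5 lost regions over 818 kb. No SPOPmut library called any region over 6390 kb around it, a stretch with 9 regions in all, of which 5 were called in all Control libraries. A block of 5 lost regions over 199 kb covered the carboxylesterase genes Ces1a, Ces1b, Ces1c, Ces1d and Ces1e (chr8:93030707-93229790). One of 3 lay inside Dlgap2, a gene of the postsynaptic scaffold (chr8:14600354-14616972). A pair of blocks of 6 (chr8:103519958-103773476) and 4 (chr8:103884813-104028970) lay in the gene-poor stretch between Cdh11 and Cdh5. The second of these ended 72.6 kb from Cdh5, which encodes the cadherin of endothelial cells. Within none of the 6 blocks did a SPOPmut library call a region that had been passed over for lack of a call in some Control library. Gained regions formed 2 runs of 3, inside Col4a1 (chr8:11221115-11260252) and inside Sorbs2 (chr8:45527219-45536946).

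Regions were next counted per gene, each region going to the nearest protein-coding gene body within 100 kb, and 582 chromosome 8 genes with at least 2 regions were compared. In 51 genes (8.76%) every SPOPmut library had fewer called regions than every Control library in each treatment, where 4.66% of all 11213 genes did so. In 21 genes (3.61%) every SPOPmut library had more, where 7.9% of all genes did so. These 21 genes went against the shift of the chromosome. The lower genes differed by -8.5 to -1 called regions, with a median of -1.75, and 40 of the 51 held a lost region. The higher genes differed by 1 to 5.38 called regions, with a median of 1.88, and 15 of the 21 held a gained region. Lost and gained regions rest on the same calls that sorted the genes. The counts of genes holding them are thus partly set by the definitions and are no separate result. The bin from 90 to 100 Mb held 13 of the 51 lower genes among its 53 genes, with Mmp2, Lpcat2, Slc6a2, 6 carboxylesterase genes, Mt1 and Nup93 among them, and 1 higher gene, Mmp15. The bin from 100 to 110 Mb held 3 lower and 4 higher genes.

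Of the genes with fewer regions, Il15 (gene 16168, chr8:82331624-82403252) stood furthest apart. It had 0 called regions in all 8 SPOPmut libraries, against 9 in each Control library with DHT and 8 in each with EtOH. Slc6a2, the noradrenaline transporter gene (gene 20538, chr8:92960470-93001667), had 0, 0, 0 and 0 (DHT) and 1, 1, 1 and 0 (EtOH) in SPOPmut, against 8, 7, 9 and 7 (DHT) and 6, 4, 5 and 5 (EtOH) in Control. The 2 genes thus had almost no calls in SPOPmut. Irs2, an adaptor of insulin and IGF receptor signalling (gene 384783, chr8:10984681-11008929), had 8, 9, 10 and 10 (DHT) and 10, 10, 10 and 9 (EtOH) in SPOPmut, against 15, 14, 16 and 15 (DHT) and 14, 14, 15 and 14 (EtOH) in Control. Dlgap2 had 2, 2, 2 and 2 (DHT) and 3, 2, 3 and 3 (EtOH) in SPOPmut, against 7, 7, 7 and 7 (DHT) and 9, 7, 9 and 9 (EtOH) in Control. Of the Irs2 regions 7 were called in every library. Psd3 (a guanine nucleotide exchange factor for Arf GTPases), Abcc12 (an ABC transporter) and Lpcat2 each differed by -5.13 called regions on average, SPOPmut minus Control, and Nup93, of the nuclear pore scaffold, by -5.

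Sorbs2, an adaptor of the actin cytoskeleton (gene 234214, chr8:45507788-45827906), led the genes that went against the shift. It had 11, 10, 13 and 12 (DHT) and 13, 12, 14 and 13 (EtOH) called regions in SPOPmut, against 7, 7, 8 and 8 (DHT) and 6, 6, 7 and 6 (EtOH) in Control. Galnt2, an enzyme that starts mucin-type O-glycosylation, had 23, 21, 24 and 23 (DHT) and 23, 20, 22 and 20 (EtOH) in SPOPmut, against 16, 17, 17 and 17 (DHT) and 17, 15, 18 and 17 (EtOH) in Control. Galnt2 is gene 108148 (chr8:124231394-124345722). Sorbs2 held 3 gained regions and Galnt2 1. Col4a1 had 7, 6, 7 and 8 (DHT) and 7, 5, 6 and 7 (EtOH) in SPOPmut, against 2, 2, 4 and 3 (DHT) and 2, 2, 4 and 2 (EtOH) in Control. Mmp15, a membrane-bound matrix metalloproteinase, had 6 in each (DHT) and 7, 6, 7 and 7 (EtOH) in SPOPmut, against 4 in every Control library. Mmp15 lay in the 10 Mb bin with the largest deficit of called regions in SPOPmut. Wdr59, a component of the GATOR2 complex that relays amino acid levels to mTORC1, had 3 more called regions in SPOPmut. Erlin2, of the degradation machinery of the endoplasmic reticulum, had 2.88 more. Lsm1, of the mRNA decapping machinery, and Cyb5b, a mitochondrial cytochrome b5, had 2.5 more each.

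Several of these differences depend on which regions a gene is given. With regions in the gene body and 10 kb on either side alone, Irs2 differed by -0.5, Abcc12 by -0.25, Il15 by -5, Galnt2 by 2.75, Erlin2 by 1.63 and Wdr59 by 1.38 called regions. Of genes described with the lists below, Sfrp1 differed by -1.88 (-3 before), Maf by -1 (-1.88 before) and Mt1 by -0.5 (-1.38 before) under that setting. With peaks of at least double the smallest signal, Psd3 differed by -2.13, Abcc12 by -2.63, Nup93 by -2.75, Lpcat2 by -2.88 and Mmp15 by 1, and with lists of equal length Wdr59 differed by 1.75.

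**Figure D4:**
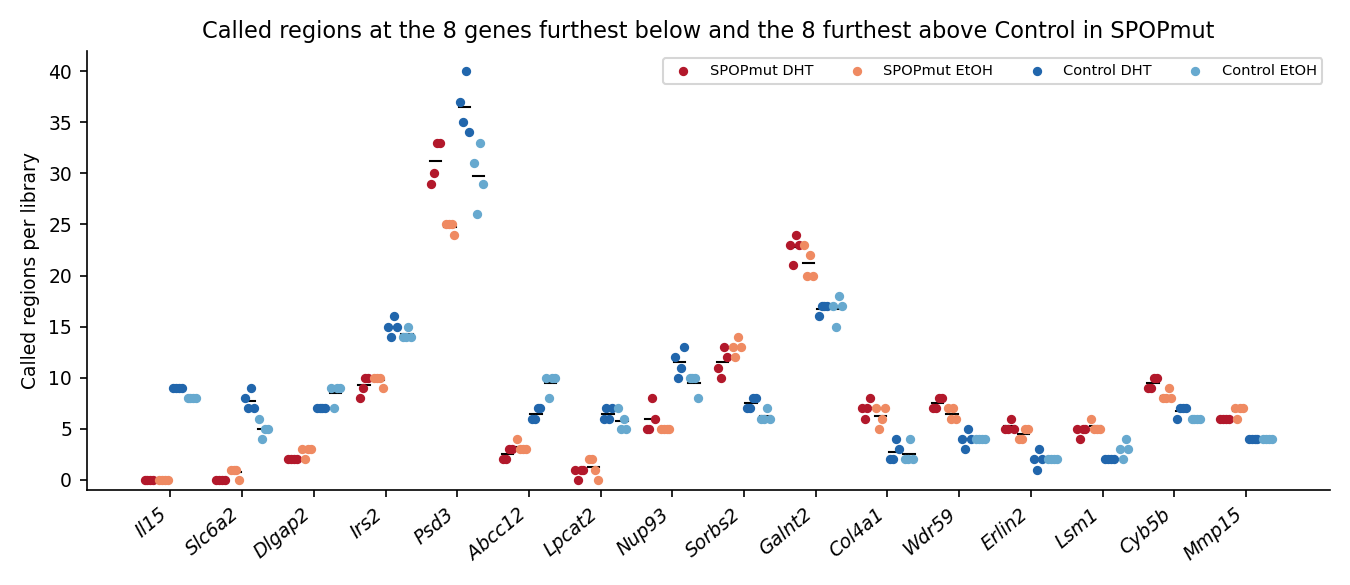
Called regions per library (dots) and group means (black lines) at the 8 chromosome 8 genes furthest below Control (Il15 to Nup93) and the 8 furthest above it (Sorbs2 to Mmp15) in SPOPmut, among genes whose genotypes do not overlap in either treatment. Il15 has 0 called regions in every SPOPmut library and 8 or 9 in every Control library.

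Genes were also read by role, in 8 lists of pathway genes and 3 of cell type markers on chromosome 8, chosen with earlier results of these data known. Over all 582 genes the median difference in called regions, SPOPmut minus Control, came to 0, as it was over all 11213 genes. In the growth factor list 1 of 13 tested genes was lower (Irs2), 0 were higher, and the median difference was -0.375. The receptor gene Insr, the ligand gene Nrg1 and the receptor gene Fgfr1 overlapped between genotypes. Nrg1 had 26 to 33 (DHT) and 25 to 26 (EtOH) in SPOPmut, against 20 to 27 (DHT) and 23 to 26 (EtOH) in Control. Among 9 genes of steroid metabolism and androgen response, 2 were lower and 0 higher, with a median of 0. They were Psd3 and Hsd17b2, whose enzyme inactivates testosterone and oestradiol. Hsd17b2 had 8, 7, 7 and 8 (DHT) and 8, 7, 9 and 8 (EtOH) in SPOPmut, against 11, 9, 10 and 11 (DHT) and 10, 10, 10 and 10 (EtOH) in Control. Its difference of -2.38 came to -0.75 with peaks of at least double the smallest signal. Nr3c2, the mineralocorticoid receptor gene, had 3 to 5 called regions in every library.

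The 9 tested genes of epithelial adhesion and polarity all overlapped between genotypes, with a median of -0.125. Cdh1 had 16 to 17 (DHT) and 13 to 16 (EtOH) in SPOPmut, against 15 to 16 (DHT) and 14 to 16 (EtOH) in Control, and Cdh3 had 11 or 12 in every library. Itgb1 and Pard3, for integrin beta 1 and a polarity scaffold, likewise overlapped. In the cytokine and innate immunity list 1 of 12 was lower (Il15) with a median of 0.25. Among 17 transcription factor genes 2 were lower (Maf and Klf2) and 1 higher (Nfat5), with a median of 0. Maf had 9 to 10 called regions in SPOPmut libraries and 11 to 13 in Control libraries, and Nfat5 had 10 to 11 in SPOPmut libraries and 7 to 9 in Control libraries. With peaks of at least double the smallest signal the difference of Maf came to -1 (-1.88 before), that of Nfat5 to 1.25 (2.25 before) and that of the stress gene Mt1 to -0.75 (-1.38 before). Of 5 genes of Wnt, Hedgehog and BMP signalling 2 were lower, both inhibitors of their pathway (Sfrp1 of Wnt and Hhip of Hedgehog), with a median of -1.25. Hhip had 0 called regions in every SPOPmut library and 1 or 2 in every Control library. Of 8 stress genes 1 was lower (Mt1) and 1 higher (Nqo1), with a median of 0.125, and of 7 cadherin genes 1 was lower (Cdh5), with a median of -0.625. Junb, Vegfc and other genes with fewer than 2 regions were not compared. Junb had its 1 region called in every library.

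Marker genes of other cell types were listed separately. Both tested endothelial genes on chromosome 8 were lower in SPOPmut. Cdh5 had 1, 0, 1 and 1 (DHT) and 1, 1, 1 and 1 (EtOH) in SPOPmut, against 3, 2, 3 and 3 (DHT) and 6, 6, 6 and 6 (EtOH) in Control. Its difference of -3.5 came to -1.63 with peaks of at least double the smallest signal. One of the regions counted with Cdh5 is a lost region 73 kb away (chr8:104028283-104028970), the last of the second block between Cdh11 and Cdh5. With the gene body and 10 kb on either side alone, Cdh5 held fewer than 2 regions and was not compared. Klf2 had 2 in each SPOPmut library and 3 in each Control library, a difference of -1 that came to -0.125 with peaks of at least double the smallest signal or with 50% cover. Summed over the 2 genes, libraries had 2 to 3 and 3 called regions in SPOPmut with DHT and with EtOH, against 5 to 6 and 9 in Control with DHT and with EtOH. Of the listed endothelial genes with fewer than 2 regions, Angpt2 had 1 region, called in every library, and Lyl1 had none. Among the endothelial genes of other chromosomes Tek had 0 and 1 in SPOPmut with DHT and with EtOH, against 2 to 3 and 2 in Control with DHT and with EtOH. Kdr had 0 or 1 in every library and Pecam1 9 to 12. The part of these markers in the blocks between Cdh11 and Cdh5 was not tested. Of 5 stromal genes 1 was lower (Mmp2, a gelatinase) and 1 higher (Col4a1), and the 2 immune genes tested overlapped. Mmp2 differed by -3.63, by -6 with 50% cover, and by -2.63 with the gene body and 10 kb on either side. Alb, a liver gene, had no called region in any library.

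DHT moved the share of chromosome 8 little. The share averaged 4.91% ± 0.0206 with DHT and 4.94% ± 0.00357 with EtOH in SPOPmut, and 5.40% ± 0.0311 with DHT and 5.40% ± 0.0266 with EtOH in Control (SD, n = 4 each). DHT minus EtOH came to -0.0159 percentage points over both genotypes (exact permutation test, two-sided, p = 0.193, adjusted p = 0.259 over 21 chromosomes), and 28.6% of chromosomes passed the threshold of an adjusted p of 0.05. The genotype difference did not pass a test of change with treatment either (-0.0277 percentage points, exact permutation test, adjusted p = 0.389, with 0 of 21 chromosomes called and 5 at an unadjusted p under 0.05).

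Within chromosome 8, DHT shifted the share of called regions in both directions. It rose in 3 of 13 bins and fell in 3, beside 22% and 22.7% of the 277 bins of all chromosomes, so chromosome 8 lies near the background. The share of the bin from 60 to 70 Mb, which holds Psd3, Cpe and Mfap3l, was 9.36% higher with DHT (exact permutation test, adjusted p = 0.00306). That bin had 172 to 197 called regions with DHT and 156 to 174 with EtOH in SPOPmut, and 183 to 207 with DHT and 163 to 190 with EtOH in Control. The ranges overlap within each genotype because lists differ in length. The bins from 50 to 60 Mb (4.82% higher, adjusted p = 0.0331) and from 110 to 120 Mb (1.62% higher, adjusted p = 0.00958) rose by the same exact test. Those from 30 to 40 Mb (-5.40%, adjusted p = 0.0104), from 10 to 20 Mb (-3.38%, adjusted p = 0.0195) and from 80 to 90 Mb (-2.51%, adjusted p = 0.0145) fell, again by the exact permutation test.

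With DHT 70 regions of chromosome 8 rose (1.72%, where 1.51% of all regions rose) and 14 fell (0.345%, where 0.259% of all regions fell), shares near the background. All of them were called in 4 of 4 libraries under one treatment and 0 of 4 under the other in each genotype, which was the only pattern that passed (exact stratified test, p = 0.000408, the smallest possible, adjusted p = 0.0231). The strongest that rose lay inside Cdh13 (percentile 82.8, chr8:118564273-118565650), 18.2 kb from Mt4 (79.9, chr8:94118383-94119591) and 18 kb from Cdh1 (73.5, chr8:106584946-106585725). The strongest that fell lay inside Inpp4b (62.1, chr8:81844039-81845371), 26.5 kb from Zfp958 (37.5, chr8:4586380-4586911) and at chr8:26689767-26690637 (36.9), with no gene within 100 kb. Of those that rose 2.86% overlapped a promoter window and 58.6% lay inside a gene body.

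Per gene, the number of called regions rose with DHT in 29 of 582 genes (4.98%, where 5.41% of all genes did so) and fell in 19 (3.26%, where 3.14% did), by the exact permutation test with Benjamini-Hochberg adjustment over all genes. Psd3 (gene 234353, chr8:67689082-68212063) changed most among those that rose. It had 29, 30, 33 and 33 called regions with DHT and 25, 25, 25 and 24 with EtOH in SPOPmut, and 37, 35, 40 and 34 with DHT and 31, 26, 33 and 29 with EtOH in Control. The rise was 6.63 called regions on average (adjusted p = 0.0119 by exact permutation), all DHT libraries lay above the EtOH libraries of their genotype, and 5 of its regions rose singly. Psd3 was thus higher with DHT in both genotypes and lower in SPOPmut under both treatments. Cdh13, which encodes a cadherin anchored to the membrane by a lipid, had 31, 29, 32 and 34 with DHT and 28, 24, 26 and 23 with EtOH in SPOPmut, and 32, 32, 35 and 33 with DHT and 31, 28, 30 and 31 with EtOH in Control (4.63 more, adjusted p = 0.0119 by exact permutation). Phkb, a regulatory subunit of phosphorylase kinase in glycogen breakdown, had 5, 5, 7 and 7 with DHT and 2 in each with EtOH in SPOPmut, and 8, 7, 8 and 8 with DHT and 4, 3, 5 and 4 with EtOH in Control. Ap1g1 of the clathrin adaptor AP-1 rose by 3.63, the prohormone-processing Cpe by 3.5 and Mfap3l by 3 called regions.

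Zfhx3 (gene 11906, chr8:108279311-108961636), a homeobox and zinc finger transcription factor known as a tumour suppressor in the prostate, had the largest fall with DHT. It had 24, 23, 28 and 29 called regions with DHT and 33, 32, 32 and 30 with EtOH in SPOPmut, and 24, 21, 24 and 22 with DHT and 30, 30, 31 and 29 with EtOH in Control (a difference of -6.5, adjusted p = 0.0119 by exact permutation). Inpp4b (gene 234515, chr8:81342266-82134312) had 9, 9, 11 and 12 with DHT and 15, 12, 13 and 13 with EtOH in SPOPmut, and 7, 8, 10 and 9 with DHT and 17, 14, 17 and 15 with EtOH in Control (a difference of -5.13, adjusted p = 0.0206 by exact permutation). The libraries of the treatments overlapped for Inpp4b in SPOPmut, at 12 called regions, and not in Control. Fto, an RNA demethylase, fell by 2.63, the Wnt antagonist Sfrp1 by 2, Abcc12 by 1.88 and Saraf, a brake on calcium entry, by 1.5 called regions.

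**Figure D5:**
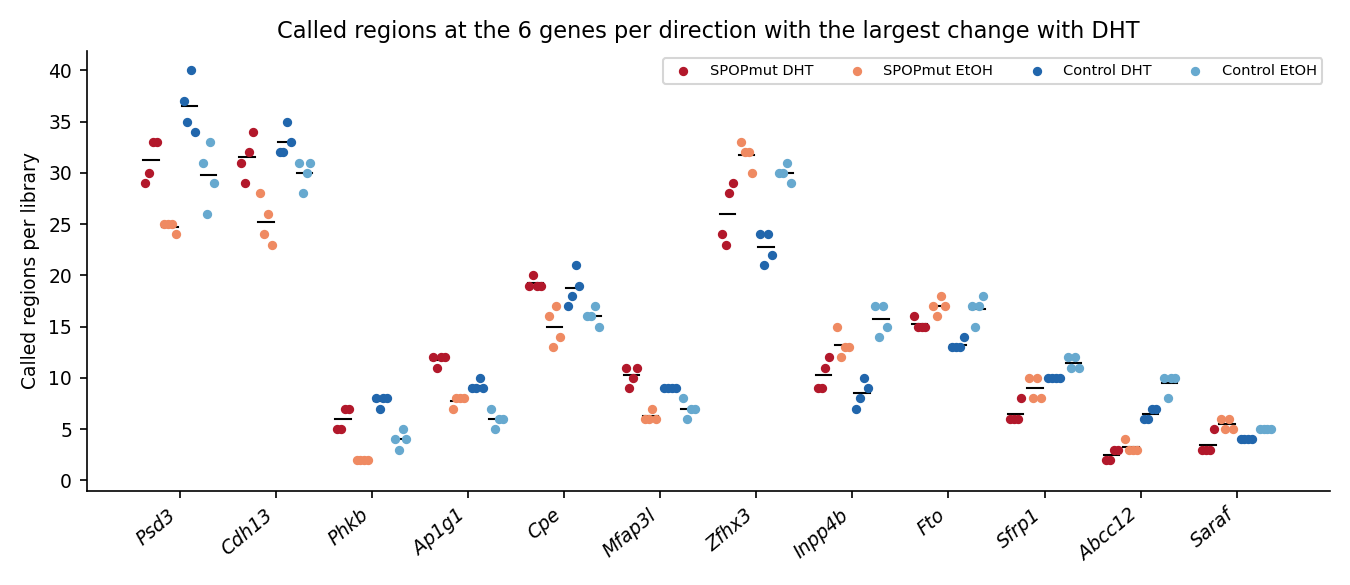
Called regions per library (dots) and group means (black lines) at the 6 genes that rose most (Psd3 to Mfap3l) and the 6 that fell most (Zfhx3 to Saraf) with DHT on chromosome 8. Psd3 averages 33.9 with DHT and 27.2 with EtOH, and Zfhx3 24.4 with DHT and 30.9 with EtOH, over both genotypes.

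The androgen response list followed no single direction with DHT. Of its 9 genes Psd3 and Hpgd, which encodes a prostaglandin-degrading enzyme, rose, Inpp4b and Zfhx3 fell, and 5 did not pass, with a median of -0.125. Hpgd had 12, 12, 13 and 14 with DHT and 10, 10, 11 and 10 with EtOH in SPOPmut, and 14, 13, 14 and 14 with DHT and 12, 12, 11 and 12 with EtOH in Control (2.25 more, adjusted p = 0.0119 by exact permutation). Among the transcription factors Hand2 and Zfp703 rose and Zfhx3 fell, with a median of 0. Among the cytokine genes Il34, a ligand of the CSF1 receptor, fell by 1.13 called regions, with a median of 0 over the list, and among the cadherins Cdh13 rose, with a median of 0.125. In the Wnt, Hedgehog and BMP list Sfrp1 fell, with a median of -0.625, and in the growth factor list Inpp4b fell, with a median of -0.125. No gene of the epithelial adhesion, stress or marker lists passed. With lists of equal length the endothelial marker Cdh5 passed (-1.25, adjusted p = 0.0453 by exact permutation), where it otherwise did not (-1.75, adjusted p = 0.0976 by exact permutation). In the growth factor list Nrp1, which encodes a co-receptor of VEGF and semaphorins, stood just outside the threshold (-2.38, adjusted p = 0.0553 by exact permutation). It passed the same exact test with 50% cover (-2.75), with equal list length (-2.13), with regions called in at least 4 libraries (-2) and without any 1 of 5 libraries (-2.63 to -2.42). Of the 51 genes lower in SPOPmut, 1 rose with DHT (Psd3) and 4 fell (Cers4, Sfrp1, Abcc12 and Adgrg3). Of the 21 higher genes, 1 rose (Mbtps1) and 0 fell. Over all 11213 genes 5.41% rose and 3.14% fell with DHT. The counts in the 2 sets are too small to be read against these shares, and the calls of Sfrp1 and Abcc12 depended on the settings.

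Several DHT calls depended on the settings, all judged by the exact permutation test. With the gene body and 10 kb on either side, Sfrp1 differed by 0.125, Saraf by -0.125, Abcc12 by -0.25, Mfap3l by 0, Cpe by 1.88, Hpgd by 0.5 and Zfp703 by 0, and none of the 7 passed. With peaks of at least double the smallest signal Psd3 (3.88, adjusted p = 0.0953), Cdh13 (3.38, adjusted p = 0.0552), Hpgd (1.5), Zfp703 (0.875), Mfap3l (0.625) and Il34 (0) did not pass that exact test. Neither did Abcc12 (-1.13), Sfrp1 (-0.875) and Saraf (-0.625). With 50% cover Cdh13 (adjusted p = 0.0543) and Hand2 (adjusted p = 0.0517) stood just outside the threshold of the exact test. Abcc12 (-1.75), Sfrp1 (-1.13), Saraf (-1), Zfp703 (0.875) and Il34 (-0.25) lay further outside it. With lists of equal length Saraf (-1.25) and Il34 (-0.875) missed that threshold. With regions called in at least 4 libraries Sfrp1 (-1.63) missed it. Abcc12 (-1.96 to -1.75) missed it without any 1 of 7 libraries, namely the 4 of Control with DHT, replicates 1 and 2 of SPOPmut with DHT and replicate 1 of SPOPmut with EtOH, and Il34 (-0.792) without replicate 3 of Control with EtOH. Zfhx3, Inpp4b, Fto, Phkb and Ap1g1 passed under every setting tried except the pairing of libraries by replicate number.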

How the data were processed

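ATAC-seq peak lists of 16 libraries were used. The submitters' processing notes name the mm10 build, SAMtools 1.8, Bowtie2 2.3.4.1 and the peak caller Genrich (its version is not given in the sources used here). Each library has its own list. The authors deposited for each peak a signal (column 7, smallest value 200), and here it ranks or filters the peaks of the same list, with depth unknown. Merging, counting and exact tests used SciPy 1.17.1, pandas 2.3.3, NumPy 2.4.6 and Matplotlib 3.10.9 under Python 3.11.15. DHT labels were permuted within genotype (4900 arrangements, smallest p 0.000408), with Benjamini-Hochberg correction over all chromosomes, bins, regions or genes at 0.05. All tests are two-sided, and the DHT tests of regions and of genes, but not the others, were run on simulated calls with known changes. Bins take a region by its start, and within 100 kb the nearest gene body in the RefSeq table was used, without strand. Named genes are the 8 largest differences per direction between genotypes, the 6 largest changes per direction with DHT, the genes at blocks and 17 genes of interest. Named regions are the 3 highest-ranked of each kind. The members, lists and rules were chosen with earlier results of these data known. Of 40 miRNA hairpins on chromosome 8, 8 lay in a region, each called in all 16 libraries. Alternatives were a signal of at least 400, a cover of 50%, equal list length, 4 libraries, 5 Mb bins, 10 kb around genes, the replicate block and leaving out each library. Some marker genes of prostate epithelium are not reported here.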

Additional observations from a re-analysis of the deposited data

Results flagged for a closer look

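Of 102 groups of 4 libraries examined, 6 held a library that stood apart from the other 3 by Dixon's criterion, and chance alone picks about 1 in 20. Control with EtOH replicate 2, the library with the shortest list, called 187 regions from 10 to 20 Mb where the others called 211 to 213, 214 from 20 to 30 Mb where the others called 241 to 245, 287 from 70 to 80 Mb where the others called 325 to 330, and 279 from 110 to 120 Mb where the others called 310 to 312. Nrg1 had 20 called regions in Control with DHT replicate 2 and 26 to 27 in the others. Pard3 had 38 in SPOPmut with EtOH replicate 2 and 43 to 44 in the others. Of 49 genes examined, 0 moved with DHT in opposite directions in all libraries of the genotypes.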

How the results depend on the processing

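The lower share of chromosome 8 in SPOPmut (-8.83%) came to -12.6% when peaks had to cover 50% of a region, -8.27% for regions called in at least 4 libraries, and -8.90% to -8.72% when each library was left out. In alternatives added after seeing the data it was -5.41% without the lost regions and -6.70% without 80 to 100 Mb. Leaving out each library gave 7 to 11 lower bins of 10 Mb, against 10 with all libraries. Bins of 5 Mb gave 17 of 26 lower bins and 5 bins higher with DHT, and runs of 2 or more gave 13 blocks. The DHT difference of the share turned to 0.00893 percentage points with signals of at least 400 and 0.00399 with 50% cover, and passed under none of the settings. The 19 genes lower with DHT became 12 with signals of at least 400, 29 with equal list length, 12 with gene bodies and 10 kb, and 17 to 29 when each library was left out, with 29 without Control with EtOH replicate 2. Sfrp1 turned to 0.125 with gene bodies and 10 kb. The cause was not tested. Over all settings lost regions numbered 78 to 131, gained regions 45 to 59, lower genes 34 to 67 and higher genes 17 to 27. Correlations between same-numbered libraries of a genotype showed no shared deviation (-0.11 to 0.0973, and 1 of 8 best with its own number). List length did follow the number in part, as replicate 2 had the shortest list and the fewest chromosome 8 calls in each group. Whether same-numbered libraries are paired is not known. With the replicate block, whose smallest p is 0.00781, 0 bins were lower with DHT, and 0 regions and 0 genes passed in either direction. Even at that smallest p, genes such as Zfhx3 had an adjusted p of 0.149 (exact permutation test). The block has too few arrangements for the correction over all regions or genes, so their counts of 0 decide nothing. Of 1645 values of named genes under alternatives, 1514 kept direction and side of the threshold, 49 no longer passed, 9 newly passed, 72 without a test moved beyond the spread and 1 reversed. Unknown depth limits every missing call, which may be signal below the caller's threshold.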
